A study of Sus scrofa with 8 samples.

Results

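The genes described here are the nuclear genes of the oxidative phosphorylation (OXPHOS) complexes in pig liver. They were taken by name, as every mRNA identifier whose symbol starts with NDUFA, NDUFB, NDUFC, NDUFS, NDUFV, UQCR, COX4, COX5, COX6, COX7, COX8 or ATP5, together with SDHA, SDHB, SDHC and SDHD. This gave 50 genes of 21607 listed mRNA identifiers, of which 20 are complex I subunits, 6 complex I assembly factors (NDUFAF), 4 complex II, 6 complex III, 8 complex IV and 6 complex V genes. NDUFA4 and its relative NDUFA4L2 carry a complex I name and were placed with complex IV, where the NDUFA4 protein is now assigned. The name table holds 80 symbols that meet the rule, and those without a matched identifier were not analysed here.

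Liver RNA came from 4 healthy female Yanan pigs (also written Yana) without close kinship, with 2 young sows at 180 days of age and 2 old sows at 8 years. Each sow gave 1 rRNA-depleted RNA-seq library. No treatment or altered allele is named for either age, and the comparison asks how liver transcripts differ between the ages. The paper states that the young sows had never given birth, while the old sows had done so for many years. Age and reproductive history therefore cannot be told apart here.

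The OXPHOS complexes sit in the inner mitochondrial membrane. Complexes I and II pass electrons from NADH and succinate to ubiquinone, complex III hands them to cytochrome c, complex IV hands them to oxygen, and complex V uses the resulting proton gradient to make ATP. Most subunits are encoded in the nucleus and imported, whereas a small core of complexes I, III, IV and V is encoded by mitochondrial DNA (mtDNA). In the liver this machinery pays for gluconeogenesis, the urea cycle and protein secretion.

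Expression is given as CPM, reads scaled to a total per library. These values hold no gene length, so levels are compared between livers and not between genes. Listed mRNAs held 37125093 to 37555696 reads per young library and 22482241 to 24866406 per old library. They summed to 408898 and 428910 CPM in young livers but only to 365330 and 346173 CPM in old livers, so an mRNA with an equal share of all mRNA reads has a lower CPM in old livers. Scaling by TMM, which equalizes the bulk of the mRNAs, moved fold changes of all mRNAs up by a median of 0.11 on the log2 scale. The median of the 50 genes moved from -0.30 to -0.12, and SDHB from -1.07 to -0.87. Counts of genes higher or lower on average are given in CPM and change with this scaling. TMM scaling turned NDUFA10 from -0.00 to 0.19 and NDUFB10 from -0.01 to 0.17. Other directions that it turned among the 50 genes and their medians are named with each result.

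No nuclear OXPHOS gene differed between the ages past an adjusted p-value under 0.05 and an absolute log2 fold change above 1 in limma, which called 0% of the 16898 mRNAs tested. All 50 genes passed the filter of a value above 0 in at least 2 libraries. At an unadjusted p-value under 0.05, limma had 3 of the 50 higher in old livers (6.78% of all mRNAs) and 7 lower (8.93%). With TMM scaling these counts became 6 and 5. A mean of at least 1 CPM was reached by 48 of the 50 genes and by 9790 mRNAs. Of these 9790, limma had 753 higher and 1372 lower in old livers at the same cutoff in CPM. Their share of lower mRNAs was close to 7 in 50, so the 7 lower genes were no clear excess over mRNAs of such levels. The smallest limma adjusted p-value was 0.213, reached by NDUFB1, NDUFA4 and NDUFB5. Liver tissue mixes cell types, and fewer cells of a type cannot be told apart here from less RNA per cell.

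Tests on recovered reads gave few calls. The exact test of edgeR called NDUFB1 higher (2.7% of all mRNAs) and no gene lower (0.456%), and at an unadjusted p-value under 0.05 it had 4 higher (10.3%) and 0 lower (2.7%). The quasi-likelihood test of edgeR called 0, with 4 genes higher (11.6%) and 3 lower (3.08%) before adjustment. DESeq2 called NDUFB1, ATP5IF1 and NDUFV1 higher (4.04%) and NDUFA4 lower (1.17%), with 5 higher (10%) and 5 lower (4.48%) before adjustment. The higher genes before adjustment include NDUFA4L2 in all of these tests, which had 0 reads in both young livers and passed the filter only through the old livers. Without it they were 3, 3 and 4.

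The median of the 50 genes was below that of all mRNAs. On average 34 of the 50 were lower in old livers (52.9% of all mRNAs) and 16 higher (47.1%), with a median log2 fold change of -0.30 against -0.02 over all mRNAs and -0.15 over the 9790 mRNAs with a mean of at least 1 CPM. TMM scaling gave -0.12, 0.04 and 0.00 for these medians. Of the 9790 mRNAs, 3919 were higher on average and 5871 lower (59.97%). The 16 higher genes include NDUFA4L2, which had 0 reads in both young livers. Only 4 genes had a log2 fold change above 1 (4.93%) and 3 below -1 (4.56%).

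Separation of the ages was common among lower genes. For 23 of the 50, both old livers lay below both young livers (25% of all mRNAs), and for 9 both lay above (24.4%). Among mRNAs with a mean of at least 1 CPM it was 23 of 48 (32.9%) and 8 of 48 (17.8%). With TMM scaling it was 16 below (18.9% of all mRNAs) and 15 above (29.3%), and with DESeq2 scaling 17 below (19.5%) and 14 above (28.6%). The 9, 15 and 14 genes above include NDUFA4L2, which had 0 reads in both young livers and passed the filter only through the old livers. It is not among the 48.

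The old livers were also set against the young livers singly. The counts above both young livers again include NDUFA4L2. Old replicate 1 was below both young livers for 32 genes (35.4%) and above both for 15 (35.5%), and old replicate 2 was below for 28 (35.5%) and above for 15 (34.7%). Of the 9790 mRNAs with a mean of at least 1 CPM, old replicate 1 was below for 45.82% and above for 31.3%. Old replicate 2 was below for 47.06% of them and above for 28.12%. With TMM scaling, old replicate 1 was below for 26 (29.5%) and above for 21 (41.8%), and old replicate 2 was below for 20 (29.2%) and above for 21 (40.9%), so the larger number of lower genes in old replicate 2 was found only in CPM. Summed over the 50 genes, the level was 2406 and 2646 CPM in young livers against 2156 and 2434 CPM in old livers, a ratio of 0.909 that turned to 1.04 with TMM scaling. As a share of all mRNA reads the sum was 0.588% and 0.617% in young livers against 0.59% and 0.703% in old livers. Neither old liver was below both young livers on that scale. These sums include NDUFB7, which was low only in young replicate 1. It was at 35.9 and 265 CPM in young livers against 279 and 334 CPM in old livers. Its old mean was 2.04-fold its young mean, so it raises the ratio of old to young sums. Sums without NDUFB7 were not computed. The ratio, its turn with TMM scaling and the order of livers by mRNA share may hold only with this gene included.

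**Figure D1:**
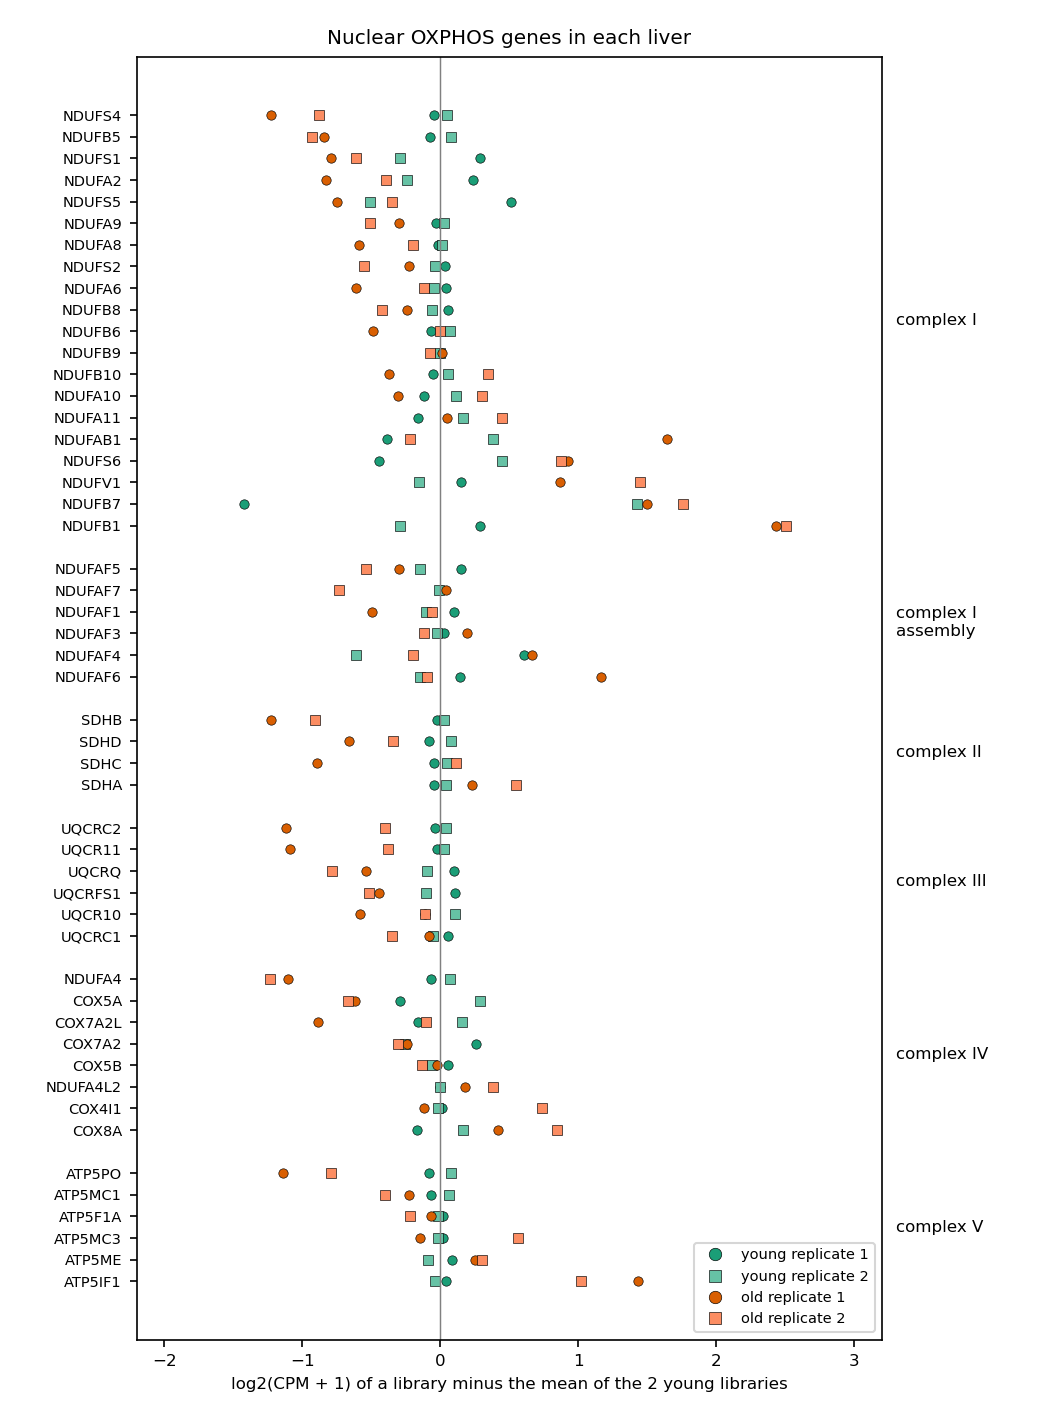
Each row is a nuclear OXPHOS gene, and each point is 1 liver, placed on the x axis by its log2(CPM + 1) minus the mean of the young livers. Genes are sorted within each complex, all 6 complex III genes have both old livers on the left (4 of 6 with TMM scaling), and NDUFB1 has both old livers far on the right.

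**Figure D2:**
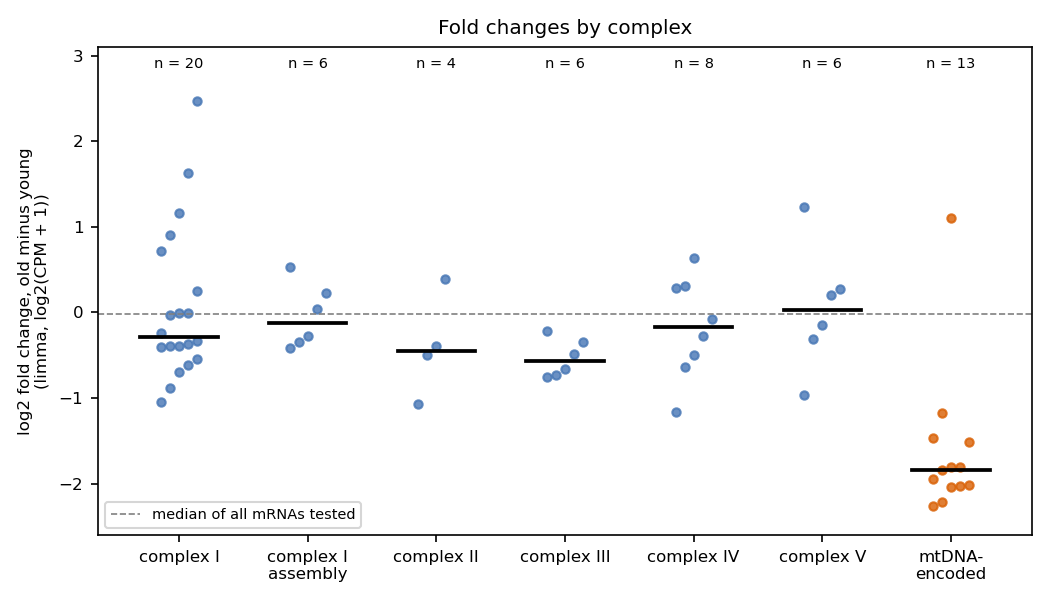
Each point is the log2 fold change of 1 gene, old against young livers (y axis), by complex (x axis), with a bar at the median of each complex and a dashed line at the median of all mRNAs. Complex III has the lowest nuclear median, -0.57, and complex V the highest, 0.03. Without old replicate 2, complex II is lowest at -0.78 and the complex I assembly factors are highest at 0.12. The medians of complex I assembly factors and of complex IV change sign with TMM scaling. For complex IV this includes NDUFA4L2, which had 0 reads in both young livers.

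Complex I takes electrons from NADH. Of its 20 subunit genes 14 were lower and 6 higher on average, with a median log2 fold change of -0.29 (-0.10 with TMM scaling) and a range from -1.05 to 2.47. Both old livers were below both young livers for 9 genes (25% of all mRNAs) and above for 4 (24.4%). With TMM scaling it was 6 below (18.9%) and 6 above (29.3%).

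NDUFB1 (ENSSSCG00000002449), an accessory subunit of the membrane arm, differed most. It was at 7.59 and 4.74 CPM in young livers against 36.9 and 38.8 CPM in old livers, resting on 410 to 2786 reads per library. Both old livers were several times above both young livers and nearly equal to each other. The limma log2 fold change was 2.47 ± 0.25 (SE), adjusted p = 0.213, and stayed within 2.18 to 2.76 when any 1 library was omitted. Tests on recovered reads gave an adjusted p of 0.276 (edgeR quasi-likelihood test), 0.000221 (edgeR exact test) and 7.46e-09 (DESeq2).

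NDUFV1 and NDUFS6 belong to the part of complex I that oxidizes NADH, and NDUFV1 binds NADH itself. NDUFV1 was at 5.36 and 4.15 CPM in young livers against 9.46 and 14.6 CPM in old livers, a log2 fold change of 1.16 ± 0.28 (SE; adjusted p = 0.255 in limma and 0.0274 in DESeq2). NDUFS6 was at 4.28 and 8.80 CPM in young livers against 12.6 and 12.2 CPM in old livers, a log2 fold change of 0.90 ± 0.37 (SE; limma adjusted p = 0.382). The ages did not overlap for either gene, although the young livers differed 2.06-fold in NDUFS6, whose log2 fold change was 0.45 without young replicate 1 and 1.35 without young replicate 2.

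Other subunits of the same arm were lower. NDUFS4, an accessory subunit whose loss causes Leigh syndrome, was at 28.8 and 30.8 CPM in young livers against 12.2 and 15.8 CPM in old livers, a log2 fold change of -1.05 ± 0.18 (SE; limma adjusted p = 0.222). NDUFS1, a large subunit that carries iron-sulfur clusters, was at 15.7 and 10.15 CPM in young livers against 6.87 and 7.94 CPM in old livers. In both genes the old livers lay below the young livers, also with TMM scaling, so genes of 1 arm lay on opposite sides of the young livers.

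In the membrane arm, NDUFB5 was at 8.92 and 10.02 CPM in young livers against 4.83 and 4.48 CPM in old livers, a log2 fold change of -0.89 ± 0.13 (SE; limma adjusted p = 0.213). NDUFB9 was at 106.4 and 106.2 CPM in young livers against 107 and 101 CPM in old livers, and its log2 fold change of -0.03 ± 0.11 (SE) turned to 0.17 with TMM scaling. NDUFB5 was separated between the ages on each scale, whereas NDUFB9 overlapped in CPM and had both old livers above both young livers with TMM or DESeq2 scaling.

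For a pair of complex I genes, 1 library set the value. NDUFB7 was at 35.9 and 265 CPM in young livers against 279 and 334 CPM in old livers, and its log2 fold change of 1.63 ± 1.13 (SE; limma adjusted p = 0.576) was 0.21 without young replicate 1, the only low liver. NDUFAB1, the mitochondrial acyl carrier protein that also serves fatty acid synthesis, was at 6.26 and 11.4 CPM in young livers against 28.65 and 7.16 CPM in old livers, and its log2 fold change of 0.71 was -0.22 without old replicate 1.

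The complex I assembly factors build the complex and are not part of it. Of the 6, 3 were lower and 3 higher on average, with a median log2 fold change of -0.12 that turned to 0.06 with TMM scaling and to 0.12 without old replicate 2. NDUFAF3 was at 26.1 and 25.2 CPM in young livers against 29.45 and 23.6 CPM in old livers, and NDUFAF1 at 4.58 and 3.85 CPM against 2.70 and 3.98 CPM. In CPM both overlapped between the ages, but both old livers were above for NDUFAF3 with TMM or DESeq2 scaling. NDUFAF5 had both old livers below on each scale, at 2.265 and 1.65 CPM against 1.40 and 1.03 CPM. NDUFAF4 and NDUFAF6 rested on as few as 14 and 12 reads in a library, and replicates of 1 age differed up to 10.5-fold and 10.1-fold.

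Complex II, succinate dehydrogenase, joins the citrate cycle to the electron chain and has no mtDNA-encoded subunit. SDHB, its iron-sulfur subunit, was at 129.6 and 134 CPM in young livers against 55.8 and 69.7 CPM in old livers, a log2 fold change of -1.07 ± 0.16 (SE; limma adjusted p = 0.215). SDHA, the catalytic flavoprotein subunit, was at 50.75 and 54.05 CPM in young livers against 61.5 and 77.2 CPM in old livers, a log2 fold change of 0.39 ± 0.17 (SE; limma adjusted p = 0.406). Neither gene overlapped between the ages, and they lay on opposite sides.

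SDHB and SDHA form the soluble head of complex II, and the ratio of their CPM does not depend on how libraries are scaled. This ratio, chosen for display after its values were seen, was 2.55 and 2.485 in young livers against 0.908 and 0.903 in old livers, with nearly equal replicates in each age. The membrane anchor SDHD was at 43.1 and 48.2 CPM in young livers against 28.4 and 35.8 CPM in old livers, a log2 fold change of -0.50 ± 0.18 (SE; limma adjusted p = 0.338). The other anchor, SDHC, was at 41.0 and 43.9 CPM in young livers against 22.4 and 46.0 CPM in old livers, and its log2 fold change of -0.39 was 0.11 without old replicate 1. The median of the 4 genes, -0.45, was -0.11 without old replicate 1 and -0.78 without old replicate 2.

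Complex III passes electrons from ubiquinol to cytochrome c. In CPM both old livers lay below both young livers for all 6 of its genes (25% of all mRNAs). It was 4 of 6 with TMM (18.9%) or DESeq2 scaling (19.5%), where UQCR10 and UQCRC1 overlapped. The median log2 fold change was -0.57, or -0.39 with TMM scaling, with single genes between -0.76 and -0.22. The summed level was 499 and 529 CPM in young livers against 339 and 424 CPM in old livers. As a share of all mRNA reads it was 0.122% and 0.123% in young livers against 0.0927% and 0.122% in old livers, so old replicate 2 was near the young livers on that scale.

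UQCRQ, a small accessory subunit, was at 72.7 and 63.3 CPM in young livers against 46.5 and 39.0 CPM in old livers, a log2 fold change of -0.66 ± 0.16 (SE; limma adjusted p = 0.26). UQCRFS1, the Rieske iron-sulfur protein, was at 7.80 and 6.60 CPM in young livers against 5.02 and 4.705 CPM in old livers, a log2 fold change of -0.48 ± 0.14 (SE; limma adjusted p = 0.285). These were the complex III genes below an unadjusted p-value of 0.05, and in both the old livers were close to each other.

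Other complex III genes differed more between the old livers. UQCR11 was at 86.9 and 90.2 CPM in young livers against 41.1 and 67.9 CPM in old livers, and the core protein gene UQCRC2 at 12.5 and 13.3 CPM against 5.41 and 9.54 CPM. UQCR10 was at 258 and 300.0 CPM in young livers against 186 and 257 CPM in old livers, with old replicate 2 barely below young replicate 1. UQCRC1, the other core protein, was at 60.4 and 56.1 CPM in young livers against 55.0 and 45.4 CPM in old livers.

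Complex IV, cytochrome c oxidase, reduces oxygen. Of its 8 genes 5 were lower and 3 higher on average, with a median log2 fold change of -0.18 that turned to 0.02 with TMM scaling. The 3 higher genes include NDUFA4L2, which had 0 reads in both young livers. With a filter of a mean of at least 1 CPM, which drops NDUFA4L2, the median was -0.27. The sign change with TMM scaling was not checked without it. NDUFA4 (ENSSSCG00000024313) was at 227 and 249.7 CPM in young livers against 110.5 and 100.4 CPM in old livers, a log2 fold change of -1.17 ± 0.13 (SE; adjusted p = 0.213 in limma and 0.0436 in DESeq2). Replicates of each age were close, and the fold change stayed within -1.24 to -1.10 when any 1 library was omitted. The RefSeq annotation of Sscrofa11.1 lists 2 genes named NDUFA4, and how reads of similar copies were divided is not stated, so this value is uncertain to that extent.

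Several complex IV and V subunits have isoforms used in different tissues, and 8 of 15 isoform symbols looked for had an identifier. COX8A, the widely expressed form of its subunit, was at 56.0 and 70.6 CPM in young livers against 84.4 and 113.6 CPM in old livers, a log2 fold change of 0.63 ± 0.24 (SE; limma adjusted p = 0.356). COX4I1 was at 45.2 and 44.3 CPM in young livers against 41.2 and 75.3 CPM in old livers, and its log2 fold change of 0.31 was -0.11 without old replicate 2. COX8A was separated between the ages, and COX4I1 overlapped in CPM but had both old livers above both young livers with TMM or DESeq2 scaling. COX7A2 (42.2 to 62.9 CPM over all livers) and COX7A2L (20.75 to 44.0 CPM) overlapped on each scale. COX5B overlapped in CPM, at 242 and 223.5 CPM against 229 and 212 CPM, but with TMM scaling both old livers lay above and its log2 fold change of -0.08 turned to 0.12.

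NDUFA4L2, a relative of NDUFA4 known as a target of hypoxia signalling, had 0 reads in both young livers. It was at 0.13 and 0.306 CPM in old livers (8 and 22 reads). Against a floor of 3 reads per young library, their mean was at least 6.29-fold higher, and the gene passed the filter only through the old livers. The adjusted p was 0.439 in limma.

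Complex V makes ATP, and its genes split by direction. ATP5IF1, which codes for the inhibitor that stops complex V from splitting ATP, was at 25.9 and 24.5 CPM in young livers against 69.7 and 52.2 CPM in old livers, a log2 fold change of 1.23 ± 0.20 (SE; adjusted p = 0.217 in limma and 0.0033 in DESeq2). ATP5PO, a subunit of the stalk that holds the catalytic head, was at 97.4 and 109.0 CPM in young livers against 46.2 and 59.1 CPM in old livers, a log2 fold change of -0.97 ± 0.18 (SE; limma adjusted p = 0.23). Neither overlapped between the ages.

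ATP5F1A, the catalytic head's alpha subunit, was at 87.3 and 85.2 CPM in young livers against 82.1 and 74.1 CPM in old livers, and its log2 fold change of -0.14 turned to 0.06 with TMM scaling. The CPM of ATP5IF1 over that of ATP5F1A, a ratio also chosen after its values were seen, was 0.297 and 0.288 in young livers against 0.849 and 0.704 in old livers. The ring subunit gene ATP5MC1 was at 77.4 and 84.85 CPM in young livers against 69.1 and 61.2 CPM in old livers. It overlapped with TMM scaling, as did ATP5F1A. Its isoform ATP5MC3 overlapped in CPM but not with TMM scaling, where both old livers were above. ATP5MC3 was at 46.55 and 45.4 CPM against 41.4 and 68.5 CPM, and its log2 fold change of 0.21 was -0.15 without old replicate 2. The median of the 6 complex V genes was 0.03 (0.23 with TMM scaling) and -0.11 without old replicate 2.

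**Figure D3:**
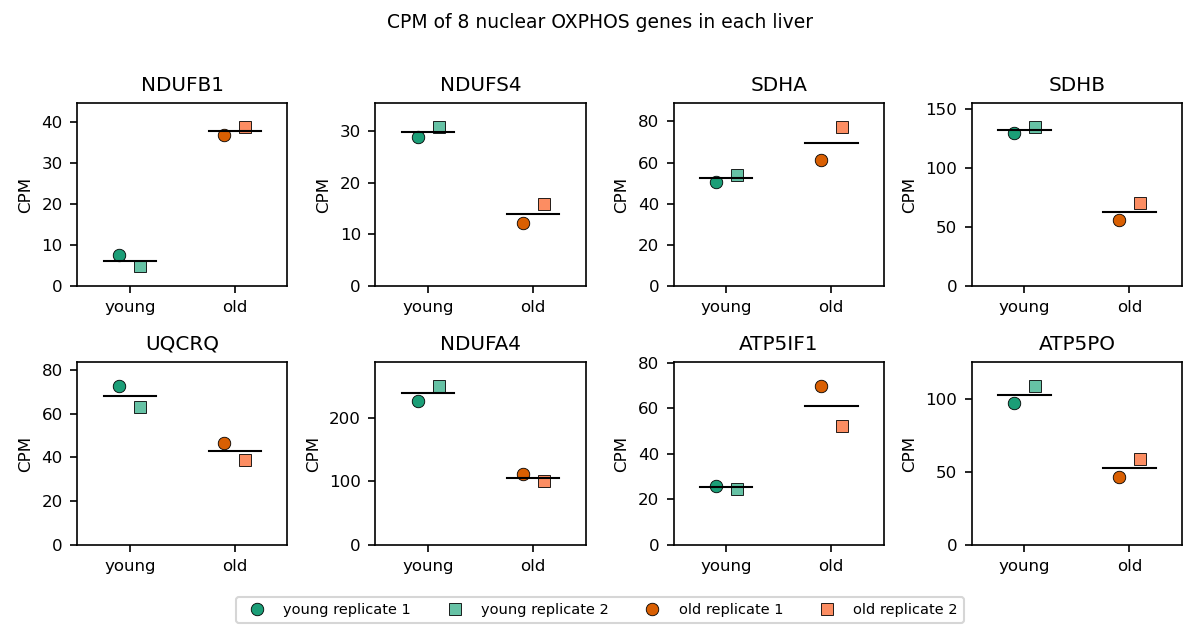
CPM of selected nuclear OXPHOS genes is plotted for each liver, with young and old livers side by side and a line at the mean of each age. NDUFB1, ATP5IF1 and SDHA are higher in both old livers than in both young livers, and NDUFA4, SDHB, NDUFS4, UQCRQ and ATP5PO are lower.

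The mtDNA-encoded subunits are the partners of these nuclear subunits, and all 13 had an identifier. In 12 of the 13 both old livers were below both young livers (25% of all mRNAs) and in ND4L both were above (24.4%). At an unadjusted p-value under 0.05, limma had those 12 lower (8.93%) and ND4L higher (6.78%), with adjusted p from 0.213 to 0.288, and none was called. DESeq2 called 8 lower (1.17% of all mRNAs) and 1 higher (4.04%), and the edgeR exact test called 2 lower (0.456%). The count of 12 was 4 without young replicate 1 and 6 without young replicate 2. The median log2 fold change was -1.84 (-1.64 with TMM scaling).

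ND1, a core membrane subunit of complex I, was at 552 and 526 CPM in young livers against 125.7 and 185.5 CPM in old livers, a log2 fold change of -1.81 ± 0.24 (SE; limma adjusted p = 0.213). COX1, the catalytic subunit of complex IV, was at 4297 and 4814 CPM in young livers against 1671 and 2417 CPM in old livers, a log2 fold change of -1.18 ± 0.24 (SE; limma adjusted p = 0.238). Among the 12 lower genes, old livers had 0.209 (ND6) to 0.449 (COX1) of the young mean, and old replicate 1 was below old replicate 2 in 12 of 12. ND4L was at 164.6 and 150.5 CPM in young livers against 259 and 442 CPM in old livers, and since ND4L overlaps ND4, as ATP8 overlaps ATP6, how reads were divided between them is uncertain.

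**Figure D4:**
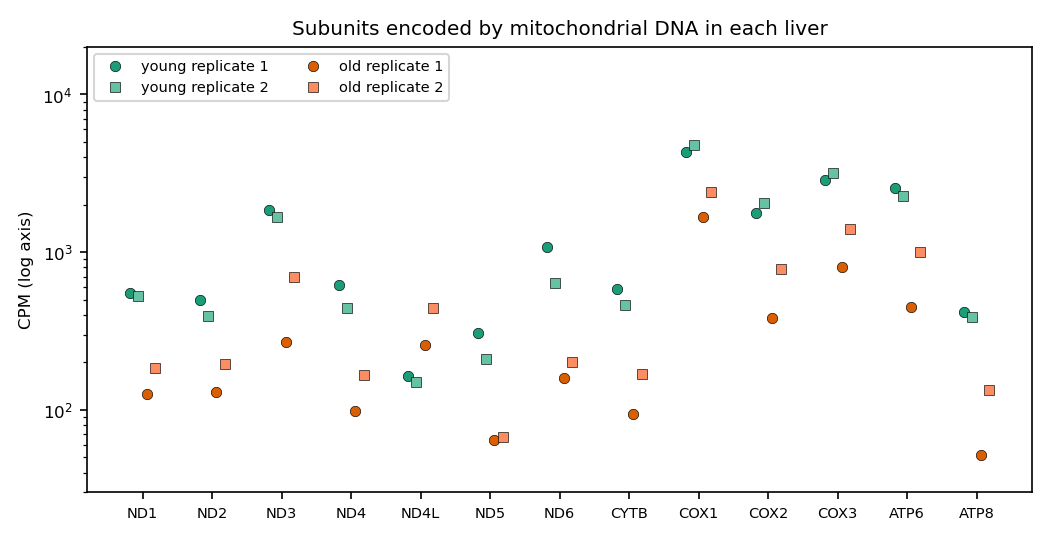
CPM of each mtDNA-encoded subunit is plotted for each liver on a log axis. The 12 genes other than ND4L have both old livers below both young livers, and old replicate 1 is the lower of the old livers.

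The nuclear sum can be set against the mtDNA-encoded sum of the same library, which removes library scaling. Over complexes I, III, IV and V (40 nuclear and 13 mtDNA-encoded genes) there were 11.99 and 13.5 nuclear CPM per 100 mtDNA-encoded CPM in young livers against 42.7 and 27.7 in old livers. The mtDNA-encoded sum was 17539 and 17219 CPM in young livers against 4561 and 7844 CPM in old livers, while the nuclear sum was 2103 and 2331 CPM against 1947 and 2174 CPM. In each of the 4 complexes both old livers had more nuclear CPM per mtDNA-encoded CPM than both young livers, from 6.85 to 7.57 against 12.8 to 18.8 in complex IV up to 85.0 to 113.9 against 252 to 357 in complex III. The mtDNA-encoded side thus differed more between the ages than the nuclear side.

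**Figure D5:**
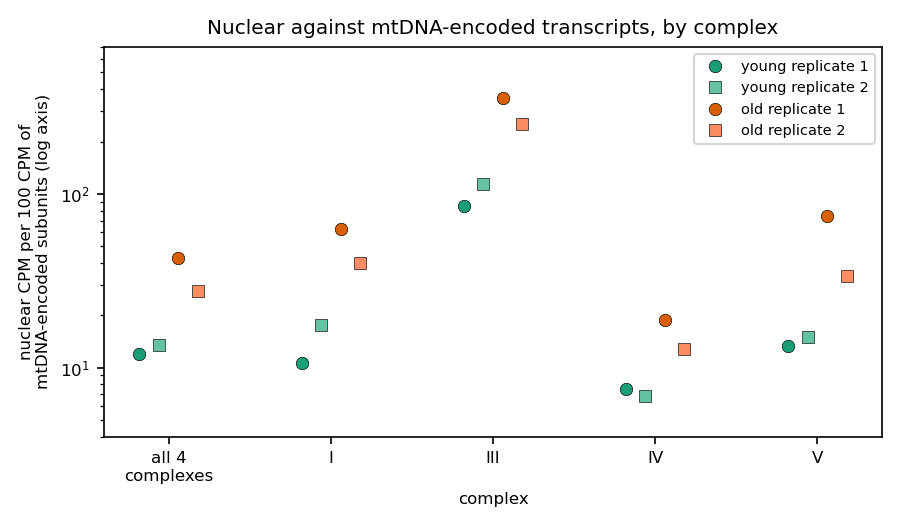
Nuclear CPM per 100 CPM of mtDNA-encoded subunits is plotted for each liver, for complexes I, III, IV and V and for their sum. Both old livers lie above both young livers in every complex, and old replicate 1 is the highest.

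Other genes of the pathway, by lists of known members, had no call in limma or the quasi-likelihood test. The edgeR exact test called COQ3, ETFB and COX10 higher (2.7% of all mRNAs). DESeq2 called these higher (4.04%) and NUBPL and MTERF1 lower (1.17%). Of 12 electron carrier and ubiquinone genes, 2 passed an unadjusted limma p-value under 0.05 as higher (6.78% of all mRNAs) and 4 as lower (8.93%). Their median log2 fold change was -0.26. Among the higher genes, COQ3 had no reads in either young liver and passed the filter only through the old livers; 1 is left without it. ETFB and ETFDH, which bring electrons from fatty acid oxidation to ubiquinone, differed in opposite directions. ETFB was at 73.1 and 68.1 CPM in young livers against 217.7 and 180.7 CPM in old livers (1.48 ± 0.15 SE, limma adjusted p = 0.213), and ETFDH at 44.6 and 44.0 CPM against 23.0 and 22.2 CPM (-0.94 ± 0.11 SE, limma adjusted p = 0.213).

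Assembly factors outside the naming rule were mixed. Of 7 for complex I, 1 passed an unadjusted limma p-value under 0.05 as lower (8.93% of all mRNAs) and 0 as higher (6.78%). This was NUBPL, which delivers iron-sulfur clusters to complex I, at 13.4 and 19.9 CPM in young livers against 4.84 and 5.53 CPM in old livers. FOXRED1, another complex I factor, was at 54.5 and 31.4 CPM against 56.3 and 67.3 CPM. Of 12 for complex IV, 2 passed as higher (6.78% of all mRNAs) and 2 as lower (8.93%), with a median of 0.01. LRPPRC, which stabilizes mtDNA-encoded mRNAs, was at 9.98 and 9.38 CPM in young livers against 5.04 and 5.22 CPM in old livers (-0.80 ± 0.11 SE, limma adjusted p = 0.213). COX10, which makes heme for complex IV, had 0 reads in both young livers and was at 0.666 and 0.432 CPM in old livers (41 and 31 reads). It passed the filter only through the old livers, and without it 1 complex IV factor passed as higher. SDHAF2, which attaches the flavin to SDHA, was at 6.925 and 8.21 CPM against 11.0 and 11.3 CPM. The few genes found for complexes III and V did not pass an unadjusted p-value under 0.05. Their log2 fold changes, with the range over omission of 1 library, were 0.33 (0.27 to 0.39) for TTC19, -0.47 (-0.71 to -0.24) for UQCC2, 0.65 (0.41 to 0.89) for ATPAF2 and -0.37 (-0.61 to -0.13) for TMEM70, which overlapped between the ages.

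Among 12 regulators of mitochondrial biogenesis, 2 passed an unadjusted limma p-value under 0.05 as higher (6.78% of all mRNAs) and 1 as lower (8.93%). Their median log2 fold change was -0.11. MTERF1, which binds mtDNA and ends transcription there, was at 3.21 and 3.32 CPM in young livers against 0.812 and 0.682 CPM in old livers (-1.29 ± 0.12 SE, limma adjusted p = 0.213). POLG, the mtDNA polymerase, was at 2.60 and 1.94 CPM against 4.18 and 4.93 CPM (0.77 ± 0.17 SE, limma adjusted p = 0.249). ESRRA, the other regulator that passed as higher, was at 10.4 and 7.44 CPM against 15.3 and 16.5 CPM (0.78 ± 0.20 SE, limma adjusted p = 0.267). PPARGC1A and NRF1, a coactivator and a transcription factor of the nuclear OXPHOS genes, overlapped between the ages in CPM. Of 15 citrate cycle and pyruvate dehydrogenase genes, 2 passed as higher (6.78% of all mRNAs) and 3 as lower (8.93%). Their median was -0.38, with SUCLG2 at -0.88 and IDH3G at 0.70.

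The libraries carried liver markers, and some marker lists differed between the ages. The 9 hepatocyte markers summed to 47480 and 53004 CPM in young livers against 33107 and 39170 CPM in old livers. ALB was the largest part, at 29468 and 35205 CPM against 16534 and 23978 CPM. On average 7 of the 9 were lower, but 6 overlapped between the ages in CPM. Their median log2 fold change was -0.24, or -0.04 with TMM scaling. All 4 macrophage markers were higher on average, with sums of 204 and 226 CPM against 290.3 and 284 CPM, and 5 of 7 T and NK cell identifiers were higher, with sums of 10.8 and 13.2 against 20.5 and 13.35 CPM. The 3 endothelial markers differed among themselves. LYVE1 was at 8.895 and 8.01 CPM in young livers against 36.5 and 7.49 CPM in old livers. KDR was at 10.6 and 9.87 CPM against 2.26 and 10.3 CPM. PECAM1 was higher in both old livers, at 10.5 and 8.92 CPM against 23.8 and 13.8 CPM. The endothelial sums were 29.97 and 26.8 against 62.6 and 31.5 CPM, and LYVE1 was the largest part in old replicate 1. The sums overlapped between the ages for 3 skeletal muscle (0.323 to 2.53 CPM), 5 stellate cell (9.64 to 36.65 CPM) and 3 cholangiocyte markers (0.278 to 1.27 CPM). The 3 B cell markers had lower sums in both old livers (0.391 to 1.93 CPM over all livers). The sum of 4 erythroid markers was nearly all HBB, at 617 and 425.5 CPM in young livers against 302 and 402 CPM in old livers, and 2 of the 4 were higher on average. As a share of all mRNA reads the erythroid sum overlapped, at 0.152% and 0.1% against 0.0842% and 0.118%. None of these markers was at 0 in all livers, and their part in the OXPHOS values was not tested.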

How the data were processed

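Liver RNA-seq of 2 young and 2 old sows was analysed. Per the labels and the study's methods, the authors used TopHat2 2.0.14, StringTie 1.2.3 and Salmon 0.6.0 with the Sscrofa10.2 genome. The deposited mRNA values are named TPM but behave as CPM: in each library 100% were whole multiples of 1 read (tolerance 0.00051), with no length term, so the authors' values were read as CPM and whole reads were recovered. Symbols came from a name table (11654 of 21607 identifiers). mRNAs above 0 in at least 2 of the 4 libraries (16898) were tested as log2(CPM + 1) with limma 3.58.1 in R 4.3.3 and Benjamini-Hochberg adjustment. The pseudocount makes fold changes of low genes too small. The count tests of edgeR 4.0.16 (quasi-likelihood, exact) and DESeq2 1.42.0 ran on recovered reads as alternatives, beside other pseudocounts, filters, TMM and DESeq2 scaling, a replicate block and omission of each library. Scripts were tested on simulated data. With 2 sows per age an exact permutation test of 1 gene cannot go below p = 0.333. A count of 3 reads corresponds to 0.0327 to 0.0488 CPM, a limit for counting error only.

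Named genes were, per complex, the 2 with the highest mean, per direction the 5 with the smallest limma p without overlap and with a mean of at least 1 CPM, the isoforms, all SDH genes and genes just inside the filter; others were named after their values were seen. Of each other list, the 2 genes with the smallest limma p were named. The genes and lists were chosen with earlier results of these data known. Promoter motifs were not analysed here. Small RNA, circular RNA and lncRNA values enter no comparison.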

Additional observations from a re-analysis of the deposited data

How the results depend on the processing

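Of 822 values of named genes under alternatives, 780 kept their direction and side of the threshold, 22 passed it only there and 20 turned. Of the nuclear genes, DESeq2 called 3 higher (4.04% of all mRNAs) and 1 lower (1.17%) and the edgeR exact test 1 higher (2.7%). Counts higher at an unadjusted p-value under 0.05 were 6 with TMM or DESeq2 scaling, 5 in DESeq2 and 2 to 7 with 1 library left out; counts lower were 0 in the exact test, 3 in the quasi-likelihood test, 11 with a pseudocount of 5 and 5 to 11 with 1 library left out. Genes with both old livers above, NDUFA4L2 included, were 15 with TMM scaling (29.3% of all mRNAs) and 14 with DESeq2 scaling (28.6%).

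Median log2 fold changes are given in the order DESeq2 scaling, DESeq2, TMM, exact and quasi-likelihood test, with the range over omission of 1 library in parentheses. They were -0.14, -0.14, -0.12, -0.11 and -0.11 for all genes (pseudocount 5: -0.19; 1 library left out: -0.34 to -0.20), -0.12, -0.11, -0.10, -0.09 and -0.09 for complex I (-0.30 to -0.16), 0.03, 0.03, 0.06, 0.06 and 0.06 for its assembly factors (-0.36 to 0.12), -0.41, -0.44, -0.39, -0.41 and -0.41 for complex III (pseudocount 5: -0.44; -0.65 to -0.39) and 0.21, 0.23, 0.23, 0.26 and 0.26 for complex V (-0.11 to 0.05). With NDUFA4L2 counted, complex IV turned to 0.02 (TMM) and 0.01 (exact and quasi-likelihood test), with -0.24 to -0.02 over omission of 1 library. It was -0.27 with a filter of a mean of at least 1 CPM, which drops NDUFA4L2. Complex II ran from -0.78 to -0.11. The cause was not tested.

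For mtDNA-encoded genes the median was -1.61 in DESeq2 and -1.59 in both edgeR tests (-2.32 to -1.34). DESeq2 called 1 higher (4.04% of all mRNAs) and 8 lower (1.17%), the exact test 2 lower (0.456%). At an unadjusted p-value under 0.05, 0 were higher without a filter, with a pseudocount of 0.1 and with the replicate block (0 to 1 with 1 library left out), and 4 to 11 lower. Electron carriers had -0.49 with a pseudocount of 0.1 (-0.34 to 0.00). Complex I assembly factors outside the rule had 0.28, 0.38, 0.30, 0.41 and 0.41 (-0.00 to 0.19), and those of complex IV 0.31 in both edgeR tests and -0.01 with a pseudocount of 0.1 (-0.09 to 0.11).

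Summed CPM ratios under TMM and DESeq2 scaling were 1.043 and 1.025 (all, NDUFB7 included), 1.13 and 1.111 (complex I assembly), 0.852 and 0.837 (III), 0.945 and 0.9295 (IV) and 1.096 and 1.078 (V). Single genes turned under both scalings and count tests: NDUFB9 to 0.15 or 0.17 (-0.07 to 0.01 with 1 library left out), COX5B to 0.10 or 0.12 and ATP5F1A to 0.03 or 0.06. With 1 library left out NDUFAF3 ran from -0.12 to 0.19, ATP5MC3 from -0.15 to 0.56, COX4I1 from -0.11 to 0.74 and SDHC from -0.89 to 0.11.

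Same-numbered samples share only a number: their deviations correlated at 0.0902 over 16898 mRNAs. With the replicate block, 0 nuclear genes were called, and before adjustment 4 passed 0.05 as higher and 6 as lower. The shares of all mRNAs before adjustment are not given here for the block. With 1 library left out, an age with 1 liver is assumed to vary like the other.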
